A study of Mus musculus with 6 samples.

Results

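Fuel use in mouse spinal cord microglia was examined through 42 genes, 18 of glycolysis and 24 of fatty acid oxidation, out of 55401 genes in the count table. The members were taken from a named list by matching Ensembl identifiers to gene symbols and all 42 matched. Of these, 41 passed the filter on low counts, among 16248 genes in all, and the exception was Ppara. RNA was sequenced from 6 libraries of microglia that had been captured from spinal cords with beads coated with antibody to CD11b, a surface protein of microglia and of other myeloid cells. Each library held the cells of 3 pooled cords from mice aged 7 months, and each group drew on 9 animals. The control group (NTg, replicates 7, 9 and 11) was non-transgenic C57BL/6. The other group (ATXN2-Q33;TDP-43, replicates 8, 10 and 12, called the double mutant here) was a heterozygous double mutant, labelled as knock-in for hATXN2-Q33 together with hTDP-43. What drives the human genes is not given in the sources used here. Mice of both groups were untreated. Each group therefore has n = 3 pools, and single animals cannot be compared.

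Glycolysis splits glucose into pyruvate in the cytosol, and lactate dehydrogenase with a monocarboxylate carrier lets cells discharge the pyruvate as lactate. Fatty acid oxidation takes place mainly in mitochondria, where acyl groups enter on carnitine and are shortened by a repeated cycle of dehydrogenation, hydration, a further dehydrogenation and thiolysis. Many steps of both pathways have several isoforms from separate genes that differ between tissues in regulation and substrate range. Microglia use both fuels, and in macrophages a rise in glycolysis accompanies inflammatory activation while fatty acid oxidation is linked to resting or repair states.

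Library totals ran from 12553570 to 22854628 counts, with the 2 largest in NTg replicate 11 and double mutant replicate 12. All 10 markers of microglia were detected, and their sum was 10887 to 15869 CPM (scaled counts per 1000000) in the 6 libraries. Markers of other cells were present too. The 10 neutrophil markers summed to 159 to 628 CPM in NTg and to 54.5 to 1672 CPM in the double mutant. The 10 oligodendrocyte markers summed to 186 to 1676 CPM in NTg and to 170 to 1172 CPM in the double mutant, and the 10 endothelial markers to 127 to 395 CPM and to 124 to 416 CPM. The 8 ependymal markers summed to 16.7 to 38.3 CPM in NTg and to 29.3 to 101.5 CPM in the double mutant, and the 8 monocyte markers to 20.2 to 41.5 CPM and to 14.9 to 108.5 CPM. Of these, 7 of 7 tested ependymal markers had positive log2 fold changes, double mutant over NTg, at a median of 1.36, and 4 had an unadjusted p under 0.05. All 8 monocyte markers had positive values too, at a median of 1.07, and 2 had such a p. So had all 10 neutrophil markers, at a median of 1.22, and all 5 erythroid markers, at 0.73, with 0 such p in either list. Of 9 tested astrocyte markers, 8 were positive and 1 had such a p. Among all tested genes, 2.26% had such a p and 48.0% had negative values. The part of these cells in the results on the members was not tested. The 19 genes known to respond to cell isolation summed to 19171 to 25283 CPM in NTg and to 22999.8 to 28437 CPM in the double mutant. Of these 19, 15 had positive values and 2 an unadjusted p under 0.05. For 3 of them every double mutant library was above every NTg library, beside 3.27% of all tested genes. Every gene of the lists whose sums are given here had counts in at least 1 library. In such bulk samples, fewer cells of a type and less RNA per cell cannot be told apart.

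The DNA just upstream of the members differed between the pathways in a short word. The word ACGTG, read on both strands, is the core that the hypoxia-inducible factor HIF-1 binds, and it is also contained in CACGTG, the E-box read by Myc and USF. In the 250 bases upstream of each RefSeq start (build GRCm38.p6), ACGTG was present for 10 of the 18 glycolysis genes (55.6%) and for 2 of the 19 fatty acid oxidation genes that matched the RefSeq table (10.5%). Among all 27025 genes of that table, whether tested here or not, the share was 18.5%. Several glycolysis genes have more than 1 start, so the count was repeated over single windows, which gave 13 of 29 (44.8%), 2 of 19 (10.5%) and 16.6% of all 32851. The longer word CACGTG was found for 3 glycolysis genes (16.7%), for 0 fatty acid oxidation genes and for 6.86% of all genes. The related HIF-1 core GCGTG did not separate the pathways: it was found for 10 of 18 (55.6%) and 11 of 19 (57.9%), against 30.9% of all genes. AGGTCA, the single site of nuclear receptors such as the PPARs, was found for 22.2% and 21.1% of the members and for 15.8% of all genes. Its direct repeat with 1 base between, which PPARs bind with RXR, was found for 0 members and for 0.0407% of all genes. These are matches of letters, and no binding was measured here.

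These 7 windows are shown because they carry that contrast or belong to genes described below. Where a gene has several windows, the first with the most matches is shown. This applies to Hk1 (2 windows), Pfkm (4) and Ldha (2). Capitals mark ACGTG on either strand, so CACGTG stands for overlapping matches on both, and each sequence runs 5′ to 3′ along the gene and ends at the base before the start. Hk2 (chr6:82774455-82774704, minus strand) has 2 matches, whereas its isoform Hk1 (window shown: chr10:62379909-62380158, minus strand) has 0 in both of its windows. GCGTG, which is not marked, has 3 matches in the window of Hk1 that is not shown. It is absent from the Hk1 window shown and from that of Hk2. Pfkm (chr15:98092339-98092588, plus strand) has 2, Pgk1 (chrX:106186850-106187099, plus strand) has 2 and Ldha (chr7:46845554-46845803, plus strand) has 5. Of the fatty acid oxidation genes, Acadvl (chr11:70015429-70015678, minus strand) has 1 and Acads (chr5:115119347-115119596, minus strand) has 0.
Hk2: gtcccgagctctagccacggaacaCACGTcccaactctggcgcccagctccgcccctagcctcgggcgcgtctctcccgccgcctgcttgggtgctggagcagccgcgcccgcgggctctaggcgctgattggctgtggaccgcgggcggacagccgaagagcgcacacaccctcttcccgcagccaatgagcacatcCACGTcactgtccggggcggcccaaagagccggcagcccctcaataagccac
Hk1: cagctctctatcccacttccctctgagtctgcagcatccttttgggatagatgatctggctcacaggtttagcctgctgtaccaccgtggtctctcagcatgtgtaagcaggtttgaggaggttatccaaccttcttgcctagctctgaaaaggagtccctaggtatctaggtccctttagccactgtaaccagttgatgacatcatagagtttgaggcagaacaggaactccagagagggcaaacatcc
Pfkm: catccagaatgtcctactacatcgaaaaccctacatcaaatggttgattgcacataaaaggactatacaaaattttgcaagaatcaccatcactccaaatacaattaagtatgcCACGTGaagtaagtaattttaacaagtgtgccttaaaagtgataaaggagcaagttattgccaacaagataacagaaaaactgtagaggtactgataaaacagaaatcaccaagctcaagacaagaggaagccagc
Pgk1: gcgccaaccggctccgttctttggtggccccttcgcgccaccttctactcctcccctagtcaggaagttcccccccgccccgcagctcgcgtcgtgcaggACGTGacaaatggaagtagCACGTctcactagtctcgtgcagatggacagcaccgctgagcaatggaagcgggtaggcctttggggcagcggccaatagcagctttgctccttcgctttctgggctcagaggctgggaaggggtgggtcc
Ldha: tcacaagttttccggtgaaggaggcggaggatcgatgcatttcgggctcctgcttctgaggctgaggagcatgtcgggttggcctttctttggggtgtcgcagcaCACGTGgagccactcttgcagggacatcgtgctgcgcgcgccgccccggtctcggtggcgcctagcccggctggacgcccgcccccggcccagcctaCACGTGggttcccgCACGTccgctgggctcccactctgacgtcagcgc
Acadvl: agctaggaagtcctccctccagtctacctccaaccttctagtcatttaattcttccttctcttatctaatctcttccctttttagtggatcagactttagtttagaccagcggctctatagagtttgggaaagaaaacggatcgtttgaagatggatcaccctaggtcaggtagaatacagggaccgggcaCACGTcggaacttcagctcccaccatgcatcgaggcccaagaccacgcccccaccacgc
Acads: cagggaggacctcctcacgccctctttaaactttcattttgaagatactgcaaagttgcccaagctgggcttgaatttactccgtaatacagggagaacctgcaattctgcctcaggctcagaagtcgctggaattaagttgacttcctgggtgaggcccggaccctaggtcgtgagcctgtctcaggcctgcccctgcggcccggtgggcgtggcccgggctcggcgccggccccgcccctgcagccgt

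Glycolysis transcripts were the more abundant of the pathways in every library. Levels are given per length, as fragments per kilobase of merged exons per 1000000 scaled counts (FPKM). The 18 glycolysis members summed to 589, 586 and 617 FPKM in NTg and to 605, 580.2 and 629 FPKM in the double mutant. The 24 fatty acid oxidation members summed to 209, 179 and 207 FPKM in NTg and to 188, 184 and 213 FPKM in the double mutant. The ratio of the sums was 2.82, 3.26 and 2.97 in NTg and 3.22, 3.16 and 2.95 in the double mutant, so the groups overlapped. The log2 ratio was 1.59 ± 0.11 (SD, n = 3) in NTg and 1.64 ± 0.07 (SD, n = 3) in the double mutant, a difference of 0.04 that is smaller than either SD. The median tested glycolysis member stood at 25.6 FPKM and the median tested fatty acid oxidation member at 6.2 FPKM. Ranked by level among 13033 tested protein-coding genes, 9 of the 18 glycolysis members were in the top 10% and 6 in the top 5%. Of the 23 tested fatty acid oxidation members, 1 was in the top 10% and 0 in the top 5%. Merged exons overstate the length of genes with many transcripts. With the length of the principal transcript the ratio of the sums was 3.29 to 3.67, and without the regulators Pfkfb3, Ppara and Ppard it was 2.45 to 2.88.

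**Figure D1:**
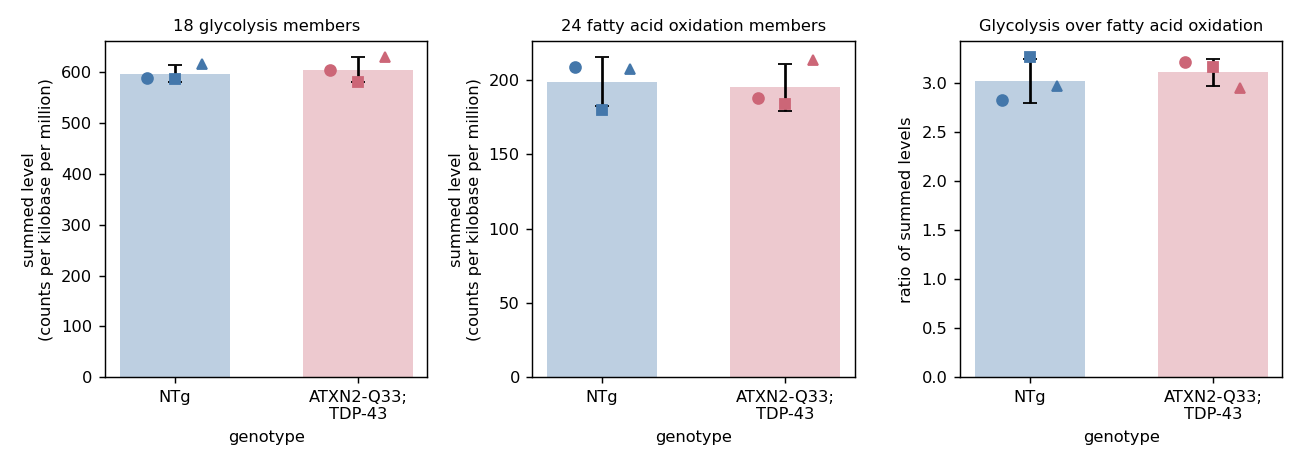
Summed level of the 18 glycolysis members (left) and the 24 fatty acid oxidation members (middle), in FPKM, and the ratio of these sums (right), by genotype. Bars are means of 3 libraries, error bars are SDs, and points are single libraries. The ratio lies between 2.82 and 3.26 in all 6 libraries.

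**Figure D2:**
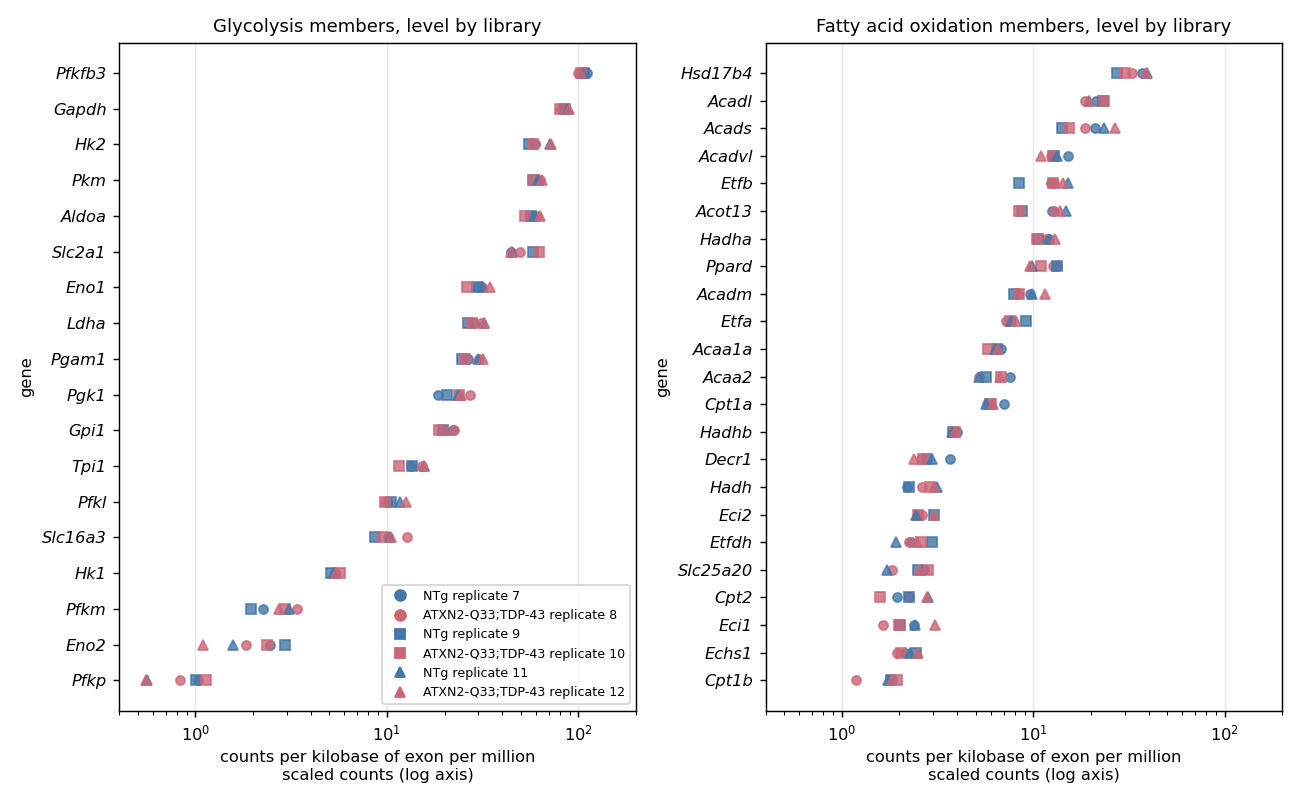
Level of each of the 41 tested members in each library, in FPKM on a log axis, with glycolysis on the left and fatty acid oxidation on the right. Blue points are NTg and red points the double mutant. The order of levels runs from Pfkfb3, at a mean of 105 FPKM, down to Pfkp, at 0.85 FPKM, per merged exon length, and the colours overlap for nearly all genes.

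Entry of glucose was represented by Slc2a1, which encodes the transporter GLUT1. Slc2a1 stood at 44.5, 58.2 and 44.8 FPKM in NTg and at 49.8, 62.2 and 44.3 FPKM in the double mutant. The highest level of each group was in replicates 9 and 10, the libraries where the endothelial marker sums were also highest, at 395 and 416 CPM against 124 to 217 CPM in the others. GLUT1 is abundant in endothelium of the central nervous system, and the part of such cells in the result was not tested. Slc2a5, the fructose transporter GLUT5 that marks microglia among brain cells, was near it at 28.2 to 37.0 FPKM in NTg and 24.5 to 39.7 FPKM in the double mutant. Slc2a3, the transporter GLUT3, was far lower, at 1.96, 1.28 and 1.41 FPKM in NTg and at 3.57, 3.34 and 1.15 FPKM in the double mutant. Its values above 3 FPKM were in replicates 8 and 10, which also had the highest neutrophil marker sums, 1672 and 1033 CPM. The part of neutrophils in these values was not tested.

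Hexokinases trap glucose in the cell as glucose 6-phosphate, and Hk2 was the leading isoform. Hk2 stood at 59.4, 55.2 and 71.0 FPKM in NTg and at 59.1, 58.1 and 72.3 FPKM in the double mutant. Hk1, the isoform of most brain cells, stood at 5.38, 5.09 and 5.29 FPKM in NTg and at 5.38, 5.67 and 5.44 FPKM in the double mutant. The Hk2 level was thus 10.2 to 13.4 times that of Hk1 in the 6 libraries, with a geometric mean of 11.6, or 5.66 with principal transcript lengths. Hk3, an isoform of myeloid cells that is not a member, came between them at 22.6 to 24.2 FPKM in NTg and 21.2 to 23.4 FPKM in the double mutant, and Hk2 exceeded it by 2.71 times. Of the hexokinase level summed per merged exon length, Hk2 took 66.0% to 71.9%, Hk3 22.7% to 27.9% and Hk1 5.35% to 6.68%. Both lowest shares of Hk3 and of Hk1 were in replicates 11 and 12, one of each genotype. Gpi1, which converts the product to fructose 6-phosphate, stood at 18.7 to 22.3 FPKM.

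Phosphofructokinase commits sugar to glycolysis, and the liver-type gene Pfkl led its isoforms. Pfkl stood at 10.2, 10.5 and 11.7 FPKM in NTg and at 9.92, 9.81 and 12.7 FPKM in the double mutant. Pfkm, the muscle type, stood at 2.24, 1.95 and 3.08 FPKM in NTg and at 3.38, 2.93 and 2.74 FPKM in the double mutant. Of the Pfkm exon bases, 10.2% are shared on the same strand with the gene model Gm26513. Pfkp, the platelet type, stood at 1.03, 1.01 and 0.56 FPKM in NTg and at 0.83, 1.13 and 0.55 FPKM in the double mutant. Pfkl was 4.02 times Pfkm and 13.1 times Pfkp as geometric means, and it exceeded both in 6 of 6 libraries. With principal transcript lengths these ratios were 6.19 and 7.24. Its ratio to Pfkp ranged from 8.65 to 22.8, and Pfkp was lowest in replicates 11 and 12.

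Pfkfb3 was the most abundant member per merged exon length, whereas with principal transcript lengths Gapdh led, at a mean of 247 FPKM against 172 FPKM of Pfkfb3. Its protein makes fructose 2,6-bisphosphate, a potent activator of phosphofructokinase. Pfkfb3 (chr2:11471433-11554077 on mm10) stood at 111, 107 and 106 FPKM in NTg and at 99.7, 103 and 103 FPKM in the double mutant, so each NTg library was above each double mutant library. Of the summed level of the 4 Pfkfb genes, Pfkfb3 took 91.5% ± 0.09 (SD, n = 3) in NTg and 90.7% ± 0.42 (SD, n = 3) in the double mutant, and Pfkfb4 took 6.76% to 8.30%. The fitted log2 fold change of Pfkfb3 was -0.08 with a 95% interval from -0.27 to 0.11 (edgeR, adjusted p = 0.9996).

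The later part of glycolysis, which recovers ATP and yields pyruvate, held several of the most abundant members. Gapdh stood at 84.8, 85.5 and 88.6 FPKM in NTg and at 81.1, 79.8 and 89.4 FPKM in the double mutant. Pkm, the gene of pyruvate kinase M, stood at 62.4, 58.1 and 61.8 FPKM and at 62.7, 58.6 and 64.4 FPKM. Of the Pkm exon bases, 15.3% are shared on the same strand with the gene model Gm49759. Between libraries Pkm and Gapdh varied little: the highest library exceeded the lowest by 1.11 times for Pkm and 1.12 times for Gapdh, against a median of 1.30 over the glycolysis members. Aldoa, the aldolase that splits the sugar, stood at 52.8 to 63.2 FPKM. Its brain-enriched isoform Aldoc stood at 1.66 to 3.16 FPKM, and Aldoa exceeded it 26.1 times as a geometric mean, or 42.997 times with principal transcript lengths. Tpi1 (triose phosphate isomerase) stood at 11.6 to 15.6 FPKM and Pgam1 (phosphoglycerate mutase) at 24.8 to 31.8 FPKM. Many of these genes have processed pseudogenes in the genome. The recorded counting options take no fragment with several alignments, so their levels may be undercounted.

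Pgk1, phosphoglycerate kinase, which makes ATP in the lower pathway, was the member with the smallest p. Pgk1 (chrX:106187100-106203699 on mm10) stood at 18.6, 20.7 and 23.6 FPKM in NTg and at 27.2, 23.9 and 24.5 FPKM in the double mutant. The groups did not overlap, but the highest NTg and the lowest double mutant library were within 1 FPKM of each other. The log2 fold change was 0.26 ± 0.11 (SE), with a 95% interval from 0.01 to 0.51 and an unadjusted p of 0.0414 in edgeR's quasi-likelihood fit. It did not pass adjustment over all tested genes (adjusted p = 0.9996). The highest library, replicate 8, was also the one with the highest neutrophil marker sum, and without it the log2 fold change was 0.21. Double mutant replicate 12, at 24.5 FPKM of Pgk1, had the lowest such sum (54.5 CPM). The highest sum of the NTg group (628 CPM) was in replicate 7, the lowest library of Pgk1. The part of neutrophils was not tested. The log2 fold change was 0.18 without NTg replicate 7 and 0.36 without NTg replicate 11. With the combined alignment named in the column headers of NTg replicates 7 and 9 as a covariate, it was 0.09.

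Enolase 1 was the main enolase. Eno1 stood at 29.6, 29.4 and 31.9 FPKM in NTg and at 31.3, 26.3 and 34.6 FPKM in the double mutant. Eno2, the neuronal enolase, stood at 2.45, 2.93 and 1.57 FPKM in NTg and at 1.83, 2.37 and 1.09 FPKM in the double mutant. Its log2 fold change, -0.39, was the lowest of the members, yet its interval ran from -1.13 to 0.34, and replicates 11 and 12 were both low. The value was -0.14 without double mutant replicate 12, -0.19 without NTg replicate 9, -0.61 without NTg replicate 11 and -0.67 without double mutant replicate 10. The 10 neuronal markers summed to 31.8 CPM in replicate 8 and to 16.6 to 20.4 CPM in the others. Eno3, the muscle enolase and not a member, was above Eno2 at 3.90 to 6.00 FPKM and took 11.96% to 14.4% of the summed enolase level.

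Pyruvate can leave glycolysis as lactate. Ldha, whose subunit favours lactate formation, stood at 28.4, 26.5 and 32.0 FPKM in NTg and at 31.0, 27.7 and 32.2 FPKM in the double mutant. Ldhb, whose subunit is known from tissues that take up lactate and which is not a member, was higher at 114, 95.7 and 129 FPKM in NTg and at 99.1, 90.1 and 129 FPKM in the double mutant. Ldhb exceeded Ldha in 6 of 6 libraries, 3.20 to 4.04 times, and 2.36 times as a geometric mean with principal transcript lengths. Slc16a3, the lactate exporter MCT4, stood at 10.1, 8.68 and 10.4 FPKM in NTg and at 12.8, 9.54 and 10.5 FPKM in the double mutant. Slc16a1, the related carrier MCT1, was at a like level, 8.01 to 9.30 FPKM in NTg and 7.21 to 10.9 FPKM in the double mutant, and was above Slc16a3 in 2 of 6 libraries. With principal transcript lengths Slc16a1 was above Slc16a3 in 0 of 6 libraries, and Slc16a3 exceeded it 1.45 times as a geometric mean, so the order of these carriers depends on the length used.

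The carnitine shuttle, which carries long acyl groups into mitochondria, was expressed at low levels per merged exon length. With principal transcript lengths the means were 10.8 FPKM for Cpt1a, 6.38 for Slc25a20 and 2.29 for Cpt2. Cpt1a, the outer membrane enzyme that limits entry, stood at 7.03, 5.91 and 5.65 FPKM in NTg and at 5.71, 6.01 and 6.18 FPKM in the double mutant. Cpt1b, the muscle isoform, stood at 1.84, 1.82 and 1.74 FPKM in NTg and at 1.19, 1.93 and 1.83 FPKM in the double mutant. Cpt1a thus exceeded Cpt1b 3.11 to 4.80 times in the 6 libraries, with a geometric mean of 3.56, or 5.41 with principal transcript lengths. Of the merged exon bases of Cpt1b, 81.4% are shared on the same strand with the gene model Gm44502, and a fragment over both was counted for both, so the Cpt1b value may include fragments of its neighbour. Cpt1c, the neuronal form and not a member, took at most 2.81% of the family. The carrier Slc25a20 stood at 1.71 to 2.82 FPKM and Cpt2, the inner membrane enzyme, at 1.59 to 2.83 FPKM.

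The acyl-CoA dehydrogenases open each cycle, and each acts on its own range of chain length. Acadl, the long-chain enzyme, stood at 21.3, 23.1 and 19.6 FPKM in NTg and at 18.6, 23.4 and 19.6 FPKM in the double mutant. Acadvl, the very-long-chain enzyme (chr11:70010183-70015411 on mm10), stood at 15.1, 12.9 and 13.4 FPKM in NTg and at 12.4, 12.6 and 10.9 FPKM in the double mutant. Every NTg library of Acadvl was above every double mutant library, with a log2 fold change of -0.20 ± 0.11 (SE), an interval from -0.45 to 0.05 and an unadjusted p of 0.0994 in edgeR. Acadl exceeded Acadvl in 6 of 6 libraries, 1.41 to 1.85 times. Acads, the short-chain enzyme, varied most of the 4: it stood at 20.9, 14.1 and 23.5 FPKM in NTg and at 18.6, 15.4 and 26.6 FPKM in the double mutant. Replicates 9 and 10 were the lowest of Acads and the highest of Acadl. Acadm, the medium-chain enzyme, stood at 7.93 to 11.5 FPKM.

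Per merged exon length, the later steps of the mitochondrial cycle stood mostly below 10 FPKM. Hadha, the alpha subunit of the trifunctional protein for long chains, stood at 10.5 to 12.9 FPKM. Its partner subunit Hadhb, transcribed from the neighbouring start in the opposite direction, stood at 3.76 to 4.02 FPKM and had the smallest spread of the fatty acid oxidation members, 1.07 times between the highest and lowest library. With principal transcript lengths these subunits came to 25.3 and 12.5 FPKM. Hadh, the short-chain hydroxyacyl-CoA dehydrogenase, stood at 2.2, 2.24 and 3.16 FPKM in NTg and at 2.64, 2.88 and 3.05 FPKM in the double mutant. Its log2 fold change of 0.17 was the highest of the pathway, with an interval from -0.24 to 0.58, and it was 0.08 without NTg replicate 7 or without NTg replicate 9 and 0.37 without NTg replicate 11. Echs1, the short-chain hydratase, stood at 1.95 to 2.51 FPKM, but at a mean of 11.8 FPKM with the principal transcript length. For Hadh that mean was 7.49 FPKM. The thiolase genes Acaa2, of mitochondria, and Acaa1a, of peroxisomes, stood at 5.18 to 7.60 and 5.80 to 6.75 FPKM.

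Unsaturated fatty acids need auxiliary enzymes. Decr1, the mitochondrial dienoyl-CoA reductase (chr4:15917240-15945507 on mm10), stood at 3.67, 2.80 and 2.95 FPKM in NTg and at 2.58, 2.64 and 2.38 FPKM in the double mutant. The groups did not overlap, and the log2 fold change was -0.31 ± 0.17 (SE), with an interval from -0.69 to 0.08 and an unadjusted p of 0.104 in edgeR. NTg replicate 7 was the highest library of both Decr1 and Acadvl. Without it their log2 fold changes were -0.18 and -0.14. The isomerase genes Eci1 and Eci2 stood at 1.64 to 3.08 FPKM and at 2.45 to 3.04 FPKM, and Eci2 was above Eci1 in 5 of 6 libraries, or in 6 of 6 with principal transcript lengths. Acot13, a thioesterase that releases fatty acids from coenzyme A, stood at 8.39 to 14.9 FPKM, with its lowest values in replicates 9 and 10.

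Electrons from the dehydrogenases pass through electron transfer flavoprotein, a dimer of Etfa and Etfb, to its oxidoreductase Etfdh. Etfb stood at 12.4, 8.38 and 15.2 FPKM in NTg and at 12.8, 12.7 and 14.4 FPKM in the double mutant. Its log2 fold change of 0.15 had an interval from -0.33 to 0.63 and turned to -0.06 without NTg replicate 9, the low library. Of the Etfb exon bases, 53.0% are shared on the same strand with the gene model Gm45233. Etfa stood at 7.20 to 9.12 FPKM and Etfdh at 1.91 to 2.96 FPKM.

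Hsd17b4, the multifunctional enzyme of peroxisomal rather than mitochondrial oxidation, was the most abundant member of its pathway. It stood at 36.7, 27.4 and 39.2 FPKM in NTg and at 32.7, 29.999 and 38.6 FPKM in the double mutant, with a log2 fold change of -0.03 and an interval from -0.37 to 0.31. Replicates 9 and 10 were again the lowest libraries, and 11 and 12 the highest.

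The nuclear receptors of the list are regulators of the pathway rather than enzymes, and they differed in level. Ppara, the main receptor of fatty acid oxidation in liver, had between 0 and 3 counts in a library and was not tested. Ppard stood at 13.2, 13.3 and 9.80 FPKM in NTg and at 12.7, 11.03 and 9.61 FPKM in the double mutant, with a log2 fold change of -0.12 and an interval from -0.45 to 0.21. Without 1 library its value ran from -0.25 (NTg replicate 11 left out) to -0.03 (double mutant replicate 12 left out). Ppard took 95.6% to 98.2% of the summed level of the 3 Ppar genes. Pparg, not a member, stood at 0.16 to 0.46 FPKM.

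**Figure D3:**
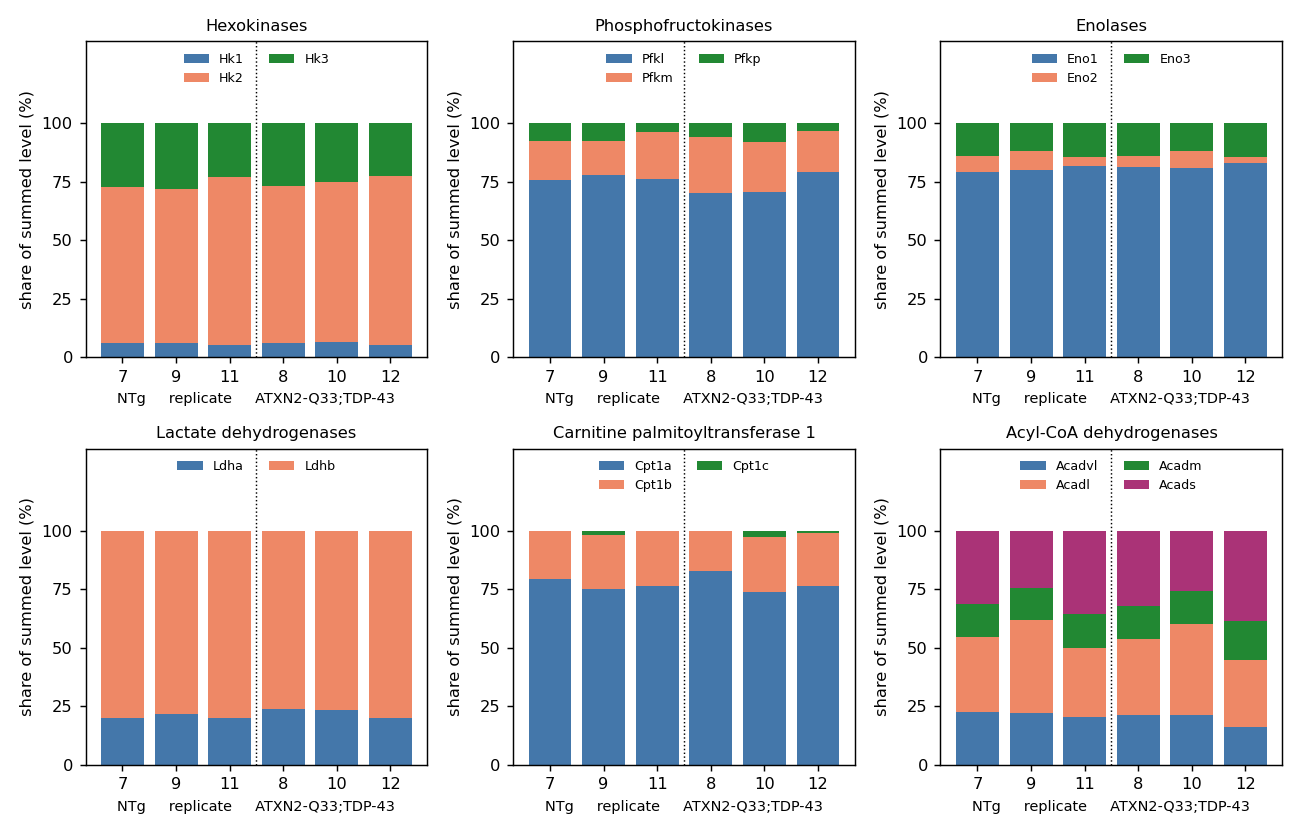
Share of each isoform, in percent of the summed FPKM of its family, in each library. The 3 NTg libraries are left of the dotted line and the 3 double mutant libraries right of it. Hk2, Pfkl, Eno1, Ldhb and Cpt1a took the largest share of their families in all 6 libraries, whereas the acyl-CoA dehydrogenases were more evenly divided.

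The choice of isoform was tested between genotypes as the log2 ratio of levels within a library, for 13 of 14 pairs. The pair of Ppard with Ppara was not computed because Ppara had under 10 counts. In all 13 pairs the libraries of the groups overlapped. The lowest two-sided exact permutation p was 0.2, for Ldhb to Ldha and for Acadl to Acadvl, where 0.1 is the smallest that 3 against 3 libraries can give. After Benjamini-Hochberg adjustment over the 13 pairs, every exact p was 0.9. The log2 ratio of Ldhb to Ldha was 1.96 ± 0.09 (SD, n = 3) in NTg and 1.79 ± 0.18 (SD, n = 3) in the double mutant. That of Acadl to Acadvl was 0.63 ± 0.18 and 0.78 ± 0.16 (SD, n = 3 each). The order of isoforms was thus the same in both genotypes for the 11 pairs in which 1 gene led in 6 of 6 libraries. A test of this size cannot pass the threshold, and a p that misses it does not show that the ratios were equal.

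Between genotypes, 0 of the 41 tested members passed an adjusted p of 0.05 in edgeR, and 0% of all 16248 tested genes did. At an unadjusted p under 0.05, 1 member passed (Pgk1), beside 2.26% of all tested genes (368). DESeq2 called 7 genes and limma voom 0, and neither called a member. Log2 fold changes of the members ran from -0.39 (Eno2) to 0.31 (Pfkm), and 19 of 41 were negative, beside 48.0% of all tested genes. The median was 0.03 over the 18 glycolysis members and -0.03 over the 23 tested fatty acid oxidation members, beside 0.01 over all tested genes. Neither median kept its sign: the first was -0.006 without double mutant replicate 12 and -0.013 with combined alignment as a covariate, and the second was 0.017 without double mutant replicate 8 and 0.001 without NTg replicate 7. Of the glycolysis members 12 had a positive and 6 a negative value, and of the fatty acid oxidation members 10 and 13.

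The 3 libraries of 1 genotype lay wholly apart from those of the other for 5 of 41 members, beside 6.85% of all tested genes. Hk1 and Pgk1 were higher in every double mutant library, beside 3.27% of all genes, and Pfkfb3, Acadvl and Decr1 were lower, beside 3.58%. For Hk1 the groups touched, as NTg replicate 7 and double mutant replicate 8 both stood at 5.38 FPKM, and its log2 fold change was 0.07. The muscle isoform Pfkm had the highest log2 fold change, 0.31, with an interval from -0.18 to 0.79 and overlapping groups. It was 0.17 without NTg replicate 9 and 0.53 without NTg replicate 11. Slc16a3 and Pgam1 followed in order of p among the glycolysis members, at log2 fold changes of 0.16 and 0.11 and with intervals that hold 0. Slc16a3 was 0.04 without double mutant replicate 8 and 0.09 without NTg replicate 9, and 0.25 without double mutant replicate 10. Pgam1 was 0.05 without double mutant replicate 12 or without NTg replicate 9, and 0.20 without either of replicates 10 and 11.

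The intervals show how large a difference could have gone undetected. The 95% interval held 0 for 40 of 41 members. It lay within a 2-fold change in either direction for 40 of 41, all except Eno2, and within a 1.5-fold change for 31 of 41. The median half-width was 0.25 on the log2 scale for glycolysis and 0.35 for fatty acid oxidation, whose members had lower counts. For a typical member, a fitted change smaller than these widths leaves an interval that holds 0. The widths are medians of unadjusted intervals, and a call after adjustment over all tested genes needs a larger change.

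**Figure D4:**
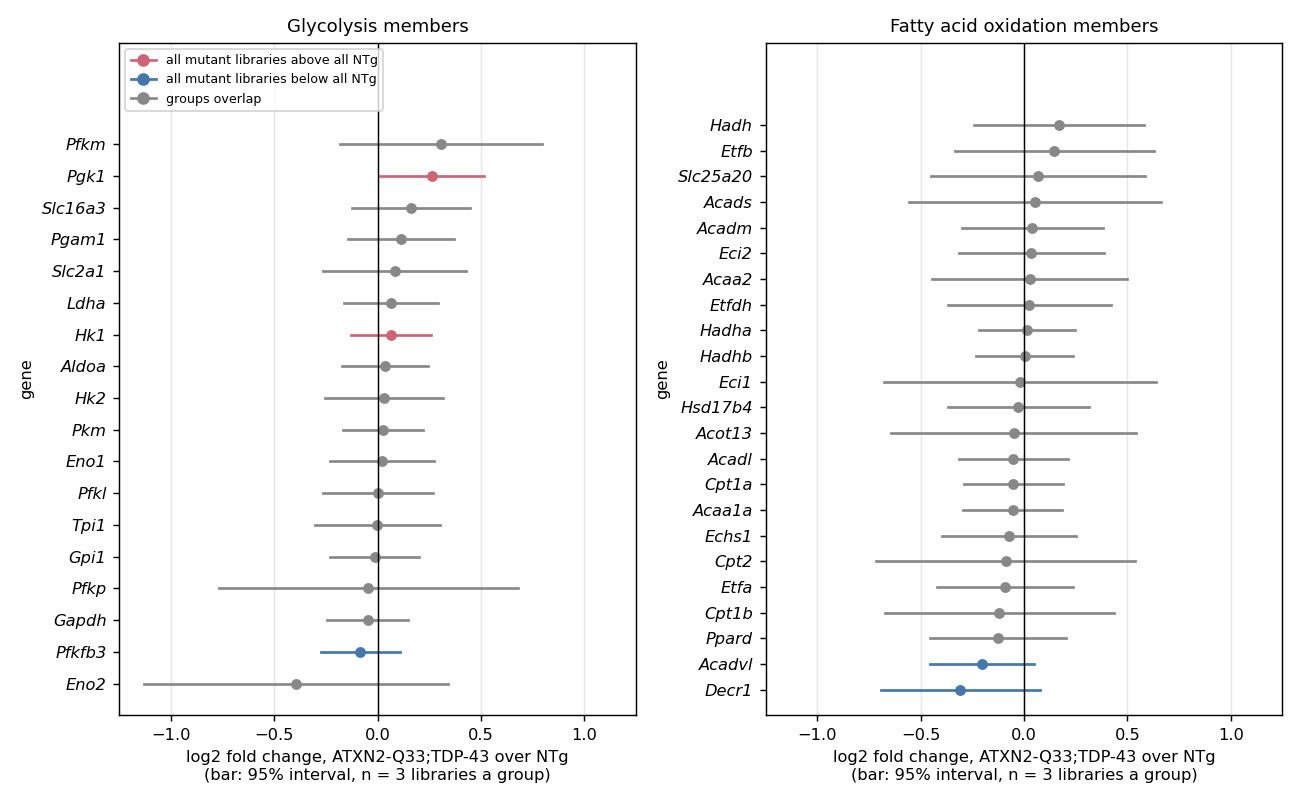
Log2 fold change of each tested member, double mutant over NTg, with its 95% interval from edgeR's quasi-likelihood fit (n = 3 libraries a group). Colours mark the 5 members whose groups did not overlap, and 40 of 41 intervals hold 0.

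Part of the spread among the members ran across libraries of both genotypes. Libraries with neighbouring sample codes, 1 of each genotype, were alike for some members, and the examples here are from replicates 9 with 10 and 11 with 12. Replicates 7 and 8 stood apart in the fatty acid oxidation members. Replicate 7 held the highest value of 6 and the lowest of 1, and replicate 8 the highest of 0 and the lowest of 5. Hk2 was highest in replicates 11 and 12 (71.0 and 72.3 FPKM against 55.2 to 59.4 in the others), and Pfkp was lowest there. Acads, Acot13 and Hsd17b4 were lowest in replicates 9 and 10, where oligodendrocyte marker sums were highest, at 1676 and 1172 CPM against 170 to 448 CPM. Of the 18 glycolysis members, 7 had their lowest value in replicate 9 and 6 in replicate 10, and 8 had their highest in replicate 12. Replicate 11, with the largest total count, held the highest value of 1 glycolysis member and the lowest of 0. Of the fatty acid oxidation members it held the highest value of 5 and the lowest of 6. Whether depth or other cells have a part in these values was not tested. The labels name no pairing of these codes. A fit with the neighbouring codes as a block called 71 genes (0.437%) and 0 members, and the lowest adjusted p of a member was 0.340, for Pgk1. Among the 71 were 4 ependymal markers and 3 of the genes that respond to cell isolation.

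**Figure D5:**
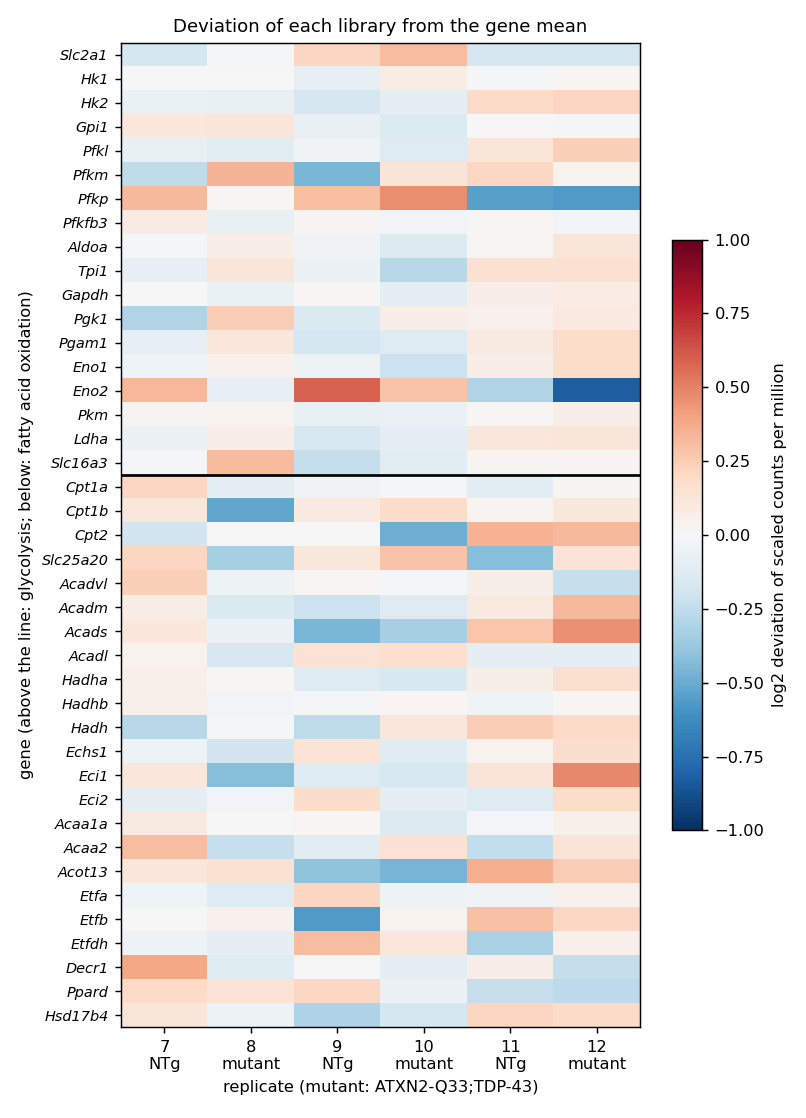
Deviation of each library from the mean over the 6 libraries, as log2 of CPM, for the 41 tested members. Red is above and blue below the mean of the gene. Replicates 11 and 12 share low Pfkp and Eno2 and high Hk2 and Acads, and replicates 9 and 10 share low Acads and Acot13.

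Other genes around both pathways were also without calls. In each of 6 context lists, 0 genes passed the adjusted threshold. Among 31 tested further genes of glycolysis and pyruvate, 2 had an unadjusted p under 0.05, both higher, where 2.26% of all tested genes had one. They were Pgam5, a mitochondrial phosphatase of the mutase family (log2 fold change 0.46), and Mpc2, a subunit of the mitochondrial pyruvate carrier (0.39). Mpc2 stood at 1.28, 1.45 and 1.5 FPKM in NTg and at 1.96, 1.81 and 1.78 FPKM in the double mutant, without overlap. In this list, every double mutant library was above NTg for 2 genes and below for 1, beside 3.27% and 3.58% of all tested genes. Mpc1, the other subunit of the carrier, stood at 21.9 to 26.0 FPKM, with a log2 fold change of -0.03. With principal transcript lengths the means were 11.7 FPKM for Mpc2 and 50.5 FPKM for Mpc1. Of the 8 genes of the pentose phosphate pathway, 0 had an unadjusted p under 0.05. Values were negative for 7 of 8, beside 48.0% of all tested genes, at a median of -0.03. Rpia (-0.15) and H6pd (-0.10) had the smallest p.

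Among 40 tested further genes of fatty acid uptake and oxidation, 1 had an unadjusted p under 0.05, again beside 2.26% of all tested genes. It was Slc27a4, a fatty acid transport protein (0.39), whose groups overlapped. Acsl4, an acyl-CoA synthetase, followed at -0.18. Of 22 regulators, 0 had an unadjusted p under 0.05, and the smallest were of Stk11 (0.17), the kinase LKB1, and Myc (-0.25). Hif1a, the regulated subunit of HIF-1, stood at 40.6 to 45.3 FPKM in NTg and at 38.6 to 40.8 FPKM in the double mutant. Ppargc1a, the coactivator PGC-1 alpha, stood at 0.10 to 0.45 FPKM.

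Targets of the regulators outside the members were read in the same way. Of 18 tested HIF-1 targets outside glycolysis, 2 had an unadjusted p under 0.05, beside the same 2.26%, 1 in each direction: Vegfa, a growth factor of vessels (0.36), and Tfrc, the transferrin receptor (-0.23). Values were positive for 13 and negative for 5, at a median of 0.09 beside 0.01 over all tested genes. Every double mutant library was above NTg for 3 and below for 1, beside 3.27% and 3.58% of all tested genes. Of 11 tested PPAR targets, 0 had an unadjusted p under 0.05, and Acot1 (0.86) and Fabp3 (-0.37) had the smallest p, both with overlapping groups. Ucp2, a carrier of the inner mitochondrial membrane, was the most abundant of that list at 71.2 FPKM, whereas Pdk4, a further PPAR target that restrains pyruvate oxidation, stood at 0.07 to 0.56 FPKM.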

How the data were processed

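RNA of 6 libraries of spinal cord microglia was depleted of ribosomal RNA and sequenced with a stranded low-input kit, per the labels' protocols. The authors deposited raw fragment counts per gene, made with featureCounts 1.6.1 on exons with strand setting 2 and GENCODE vM25, per the file headers. Fragments that lie over more than 1 gene entered the count of every such gene, and fragments with several alignments were not counted under the recorded options. Reads were trimmed with Trim Galore 0.4.1 and aligned with TopHat2 to mm10, per the submitters' processing notes, which also name FastQC and DESeq2. The merged exon length of each gene is the one the authors deposited. The table also holds 6 sample columns that were not used.

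Symbols were matched by Ensembl identifier for 55141 of 55401 genes. For Aldoa, which has more than 1 identifier, the longer gene was used (the other had 2 to 7 counts). Ero1a of the HIF-1 target list was not matched. Genes were filtered with filterByExpr (minimum count 10) and tested in edgeR 4.0.16 (R 4.3.3) with TMM scaling and a robust quasi-likelihood fit, double mutant minus NTg, without covariates. P-values were adjusted by Benjamini-Hochberg over all tested genes at a threshold of 0.05. The procedure was tested on simulated data. DESeq2 1.42.0, limma 3.58.1 and other settings were alternatives. Intervals are 95%, from the t distribution. FPKM uses TMM-scaled totals. Exact permutation tests were two-sided. Library pairs of a group differed by more than counting noise (chi-square per degree of freedom 11.1 to 32.7), so each was 1 replicate. No label says that pools were made on separate days. P-values measure only the spread between these pools.

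All members are given by level. Values in every library are given for the 5 members of smallest p in each pathway, the most abundant, those whose groups do not overlap and the isoform pairs, and for context lists the genes of smallest p at a mean of at least 1 CPM. Members, lists and tests were chosen with earlier results of these data known. Genes such as Eno3, Pparg, Hif1a, Ppargc1a, Ucp2 and Pdk4 were chosen after their values were seen. Upstream sequences are RefSeq's (GRCm38.p6), for 37 of 42 members. Principal transcript lengths and biotypes are from GENCODE on the same assembly.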

Additional observations from a re-analysis of the deposited data

How the results depend on the processing

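The count of members past the threshold was 0 in all 14 refits and at a threshold of 0.1, while the count of genes was 7 with DESeq2's test, 6 without a filter on low counts and 71 with neighbouring sample codes as a block, against 0. Leaving out 1 library gave 0 to 2 genes, the 2 without double mutant replicate 12. Of 41 tested members, 10 kept their sign in all 14 refits, and the share of all tested genes that did so was not computed. Among the 10 were Hk1, Pgk1, Pfkfb3, Acadvl and Decr1, which are all the members whose groups do not overlap. Leaving out 1 library cannot make such groups overlap, so their kept sign was largely fixed in advance. With combined alignment as a covariate, both libraries so marked are NTg, so the contrast rests on NTg replicate 11. The log2 fold change then reversed for Pfkm (-0.035), Pgam1 (-0.027), Eno2 (0.16), Hadh (-0.14), Etfb (-0.19) and Ppard (0.18). Over single left-out libraries, Hsd17b4 ranged from -0.169 to 0.083 and Etfb from -0.057 to 0.365. The double mutant minus NTg difference in log2 isoform ratio ranged from -0.143 to 0.064 for Hk2 to Hk1, -0.339 to 0.398 for Pfkl to Pfkp, -0.229 to 0.084 for Cpt1b to Cpt1a, -0.260 to 0.304 for Aldoc to Aldoa, -0.452 to 0.143 for Slc2a5 to Slc2a1 and -0.066 to 0.287 for Eci2 to Eci1. The cause was not tested. The labels name no pairing and give the groups no shared replicate numbers, so the fit with neighbouring sample codes as a block was the only paired fit.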
